A study of Mus musculus with 6 samples.

Results

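The genes described are the insulin-like growth factor 1 gene, its receptor, 6 IGF binding proteins and the receptor substrates Irs1 and Irs2, as they were expressed in mouse embryonic fibroblasts (MEFs) with and without Gαq. The 10 genes (Igf1, Igf1r, Igfbp2, Igfbp3, Igfbp4, Igfbp5, Igfbp6, Igfbp7, Irs1 and Irs2) were taken by name, through their Ensembl identifiers, from a table of 56953 genes. MEFs are fibroblasts, the cells that make connective tissue, taken from embryos and kept in culture. The table holds 6 RNA sequencing libraries from total RNA, 3 of wild-type (WT) MEFs and 3 of MEFs whose genotype label is GαqKO, and the study's methods describe the latter line as knocked out for both Gαq and Gα11. The cells were grown in DMEM with 10% fetal bovine serum, and no treatment is named. Mouse strain, embryo age and sex were not given in the sources used here. The methods describe the MEFs of each genotype as a gift from another laboratory and name no separate embryos behind the 3 replicates. Genotype and any other difference between the MEF stocks therefore cannot be told apart, and p-values measure only the spread between libraries.

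IGF1 is a secreted growth factor that activates the receptor tyrosine kinase IGF1R. The activated receptor phosphorylates the docking proteins IRS1 and IRS2, which recruit PI3 kinase and so switch on AKT. IGF binding proteins are secreted carriers that hold IGFs in the fluid and matrix around cells, prolong their life and limit or deliver them to the receptor, and fibroblasts are a known source of both IGF1 and several of the carriers. IGFBP7 is a more distant relative that binds IGFs weakly and is found in the matrix.

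The targeted genes were checked first. Gnaq, which encodes Gαq, had 1665, 1660.2 and 1747 normalized counts in the WT libraries and 1959.7, 1931 and 1888 in those labelled GαqKO. Gna11, which encodes Gα11, had 2141, 2179.9 and 2123 normalized counts in WT and 472, 464 and 419 in GαqKO. The study reports that Gαq protein was lacking in its GαqKO MEFs, by Western blot and immunofluorescence, which RNA counts do not measure. Since Gnaq RNA was not lower, directions are given for the libraries as labelled. Ddx3y, a Y-linked gene, had 1139 to 1239 normalized counts in WT and was listed at 0 in each library labelled GαqKO, which is a difference outside the Gq class. The X-linked gene Xist was listed at 0 in every library of both groups, so the sex of the GαqKO line cannot be read from these genes. A normalized count is the number of reads on a gene after division by the size factor of its library, and these values summed to between 11392429 and 11483486 per library. The 10 fibroblast markers summed to 73260.0 to 79170.0 normalized counts in WT and 56300.0 to 58770.0 in GαqKO. Of these, 5 were higher in GαqKO (limma, adjusted p under 0.05). Over all genes tested, 31.8% were higher and 34.1% lower. Pdgfra had 17.5 to 21.9 in WT and 2274 to 2356 in GαqKO, and Dcn had 30.1 to 35.5 and 1604 to 1710.0. The others were S100a4, Thy1 and, by 0.23 on the log2 scale, Pdgfrb. Thy1 had 2.09, 0 and 0 in WT and 59.2, 59.0 and 76.5 in GαqKO. It reached the level needed for a test, 10 normalized counts in 3 libraries, only through GαqKO, so that it had to differ. The collagen genes Col1a1, Col1a2 and Col3a1 and the filament gene Vim were lower, with log2 fold changes of -1.53, -0.36, -0.18 and -0.32, and Lum stayed under 10 in each library. The 6 epithelial markers summed to 515 to 541 in WT, nearly all of it Krt14 and Cdh1, and to 10.1 to 23.1 in GαqKO. Neural markers summed to 777 to 894 in WT and 519 to 546 in GαqKO, with Sox2 at 0. The fall lay in Tubb3 (log2 fold change -2.73), whereas Map2 did not pass the test (0.13). Endothelial, macrophage, skeletal muscle and adipocyte markers each summed to at most 25.5 normalized counts in any library, with Myog at 0. These marker differences run along the same split as every comparison given here, and their part in the results was not tested. In bulk RNA, fewer cells of a type and less RNA per cell cannot be told apart.

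Most of the IGF1 axis differed between the WT libraries and those labelled GαqKO. The binding protein genes Igfbp3, Igfbp4, Igfbp6 and Igfbp7 were higher in the libraries labelled GαqKO by 2.50 to 5.20 times, Irs1 rose 2.04 times and Igf1r 1.24 times, while Igf1 and Irs2 fell. Igfbp2 and Igfbp5 were nearly absent from all libraries. limma was fitted to log2(normalized count + 1) over 14096 genes, those that reached 10 normalized counts in 3 or more libraries, and fold changes on this scale understate the change of low genes. Of the 10 genes, 8 passed that filter. Igf1 passed only through its WT libraries, so that it had to differ, and counts over the genes that passed are given as a description. At an adjusted p under 0.05, 6 were higher, against 31.8% of all genes tested, and 2 were lower, against 34.1%. With the study's second threshold added, a log2 fold change beyond 1 either way, 5 were higher, where 10.2% of all genes were, and 2 were lower, where 10.5% were. The values of the WT and GαqKO libraries did not overlap for any of the 8, which was also true of 69.6% of all genes tested. The median log2 fold change was 1.18 over the 8 genes and -0.01 over all genes, and the median size of the change was 1.43 and 0.39.

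**Figure D1:**
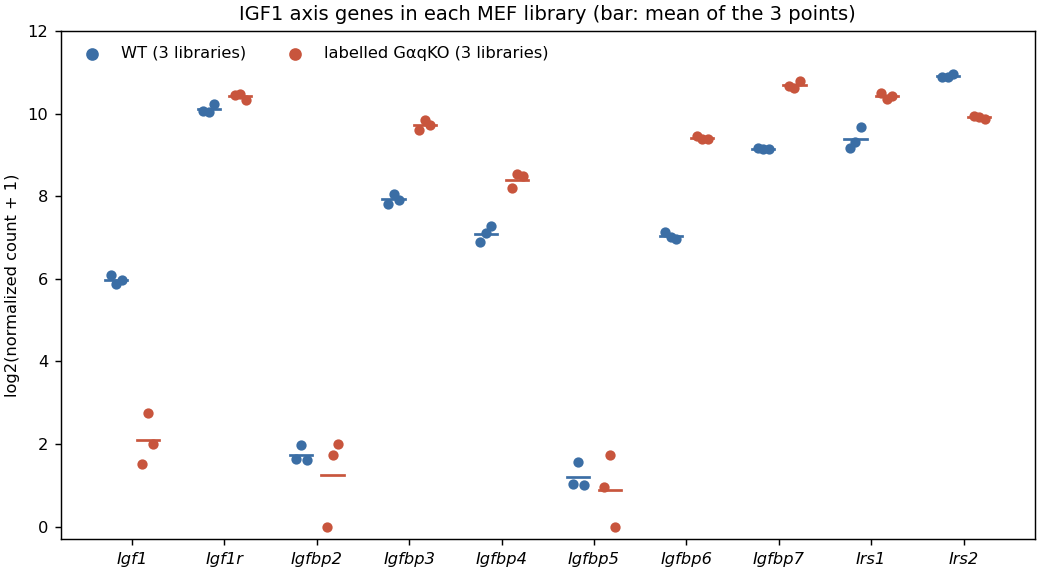
Each point is the log2(normalized count + 1) of 1 gene in 1 library, with WT in blue and the libraries labelled GαqKO in red, and each bar is the mean of 3 libraries. The 4 binding proteins Igfbp3, Igfbp4, Igfbp6 and Igfbp7 lie higher in GαqKO, Igf1 and Irs2 lie lower, and Igfbp2 and Igfbp5 lie near the bottom in both groups.

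**Figure D2:**
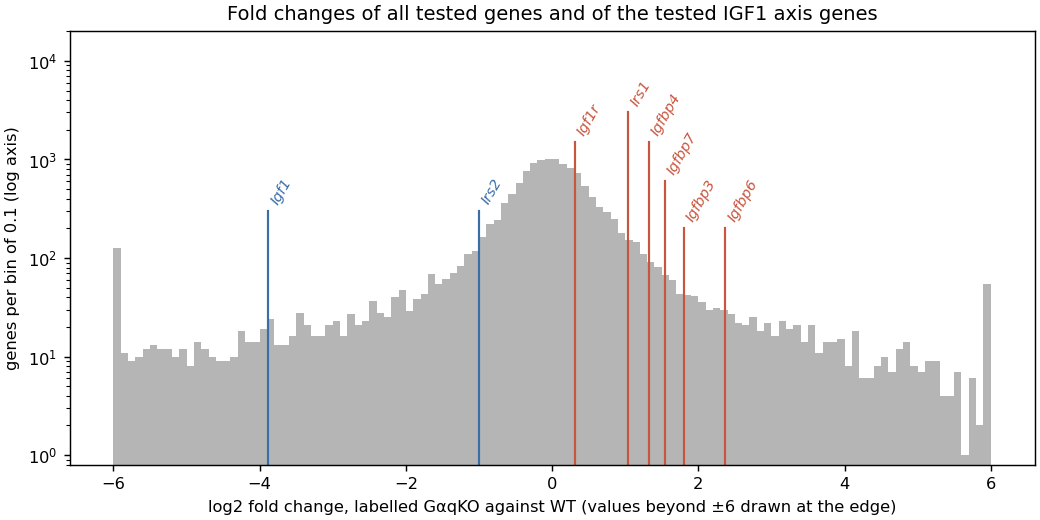
Grey bars count all 14096 tested genes by their log2 fold change in bins of 0.1 on a log axis, and coloured lines mark the 8 tested genes of the IGF1 axis. The lines of Igf1 at -3.89 and of Igfbp6 at 2.37 stand in the tails, and that of Igf1r at 0.31 stands in the bulk.

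The ligand gene Igf1 (ENSMUSG00000020053.19; chromosome 10, 87693642 to 87772904, plus strand, GRCm39) had 67.9, 57.3 and 62.1 normalized counts in the WT libraries and 1.88, 5.78 and 3.02 in those labelled GαqKO. All WT values lay far above the highest GαqKO value. Igf1 fell by 3.89 on the log2 scale (standard error 0.36, adjusted p = 4.08e-07 from limma), which was the largest change among the 8 genes tested. Because Igf1 passed the filter only through its WT libraries, it had to differ, and this p-value and rank are given as a description. Whole reads could be recovered in 5 libraries, where 185 reads fell on Igf1 in the 3 WT libraries and 7 in GαqKO replicates 1 and 2. The ratio of WT to GαqKO from those reads was 17.2, with an exact 95% interval of 8.17 to 43.3 that covers counting error only. With so few reads, the level left in GαqKO is poorly known. No Igf1 exon overlaps an exon of its antisense neighbour Igf1os, although 28.6% of its exon length lies within that gene's span.

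The receptor gene Igf1r (ENSMUSG00000005533.11; chromosome 7, 67601518 to 67883416, plus strand) encodes the tyrosine kinase that IGF1 binds. It had 1066, 1050.1 and 1215 normalized counts in WT and 1408, 1429 and 1283 in GαqKO. The groups did not overlap, but WT replicate 3 lay closer to GαqKO replicate 3 than to the other WT libraries. The log2 fold change was 0.31 (95% interval 0.17 to 0.45, adjusted p = 8.34e-04 from limma), the smallest of the 8 tested genes. Of the Igf1r exon length, 30.4% lies within the span of Pgpep1l.

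The binding protein genes fell into those that rose and those that were silent. In the group that rose, the sequences just before the annotated start of transcription are shown to let the promoters of genes that moved together be compared, with Igf1, which moved the other way. Each line gives the 150 bases before the start of the canonical GENCODE transcript in GRCm39, read 5′ to 3′ on the gene's own strand. Capitals mark matches, on either strand, to 3 promoter motifs whose letters are given after the sequences (the TATA box, the GC box and the CCAAT box).
Igfbp3 (chr11:7164180-7164329, minus strand): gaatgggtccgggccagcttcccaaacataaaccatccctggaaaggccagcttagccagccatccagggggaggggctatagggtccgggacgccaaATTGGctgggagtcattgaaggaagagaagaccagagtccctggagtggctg
Igfbp4 (chr11:98931914-98932063, plus strand): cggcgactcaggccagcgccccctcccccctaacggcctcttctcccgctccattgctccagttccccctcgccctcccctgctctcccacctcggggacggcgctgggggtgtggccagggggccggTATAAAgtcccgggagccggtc
Igfbp6 (chr15:102052547-102052696, plus strand): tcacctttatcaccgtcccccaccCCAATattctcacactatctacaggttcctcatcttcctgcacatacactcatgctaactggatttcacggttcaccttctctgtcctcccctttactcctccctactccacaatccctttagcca
Igfbp7 (chr5:77555915-77556064, minus strand): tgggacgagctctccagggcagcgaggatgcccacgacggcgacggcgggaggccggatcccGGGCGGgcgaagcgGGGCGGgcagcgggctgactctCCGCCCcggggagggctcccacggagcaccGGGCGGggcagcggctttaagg
Igf1 (chr10:87694759-87694908, plus strand): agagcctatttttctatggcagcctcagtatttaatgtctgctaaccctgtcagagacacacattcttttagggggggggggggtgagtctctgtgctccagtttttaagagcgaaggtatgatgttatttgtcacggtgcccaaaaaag

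Among the motifs searched, the promoters of the 4 binding proteins that rose had none in common. In windows from 250 bases before to 50 bases after the start, searched on both strands, TATAAA was in Igfbp4 and Igfbp6, where its match lies outside the stretch shown. CCAAT was in Igfbp3 and Igfbp6, and GGGCGG was in Igfbp7 but in none of the other 3. Over the 21770 protein-coding promoters of the same length, 13.2% held TATAAA, 39.9% CCAAT and 42.5% GGGCGG. No promoter of the 10 genes held GTAAACA (a forkhead site, in 3.15% of promoters), TGACGTCA (a cyclic AMP response element, in 2.44%) or TGAGTCA (an AP-1 site, in 4.70%), and none of the 6 motifs is contained in another. The number of CG dinucleotides in the window was 8 for Igfbp6, 12 for Igfbp3, 27 for Igfbp4 and 32 for Igfbp7, against a median of 11 over all promoters and 5 for Igf1. A match describes the letters only and is not evidence of binding.

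Igfbp6 (ENSMUSG00000023046.7; chromosome 15, 102052697 to 102057953, plus strand), whose protein prefers IGF2 over IGF1, rose the most of the binding proteins. It had 139.9, 129 and 124 normalized counts in WT and 702, 669 and 673 in GαqKO. The 3 libraries of each group lay close together, with a wide gap between the groups. The log2 fold change was 2.37 (standard error 0.08, adjusted p = 2.00e-11 from limma).

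Igfbp3 (ENSMUSG00000020427.12; chromosome 11, 7156086 to 7164179, minus strand) encodes the main carrier of IGFs in serum. Its normalized counts were 223, 265 and 239 in WT and 775, 915 and 848 in GαqKO. Every GαqKO library was above every WT library, and the log2 fold change was 1.80 (standard error 0.08, adjusted p = 3.67e-10 from limma). Igfbp7 (ENSMUSG00000036256.14; chromosome 5, 77493130 to 77555931, minus strand) had 573, 564 and 566 normalized counts in WT and 1622, 1577 and 1774 in GαqKO. Its log2 fold change was 1.54 (standard error 0.06, adjusted p = 2.90e-11 from limma). Of its exon length, 77.4% lies within the spans of other genes, mostly Polr2b on the other strand, and 13.7% within their exons, so reads from that strand may enter or be lost from its count, which was not tested.

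Igfbp4 (ENSMUSG00000017493.13; chromosome 11, 98932064 to 98945218, plus strand), whose protein restrains IGFs until the protease PAPP-A cuts it, had 117, 137 and 154 normalized counts in WT. In GαqKO it had 293, 370.0 and 357.5. GαqKO replicate 1 was the lowest of its group but still far above the highest WT value. The log2 fold change was 1.32 (standard error 0.12, adjusted p = 5.40e-07 from limma).

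Igfbp2 (ENSMUSG00000039323.19; chromosome 1, 72863606 to 72891634, plus strand) and Igfbp5 (ENSMUSG00000026185.9; chromosome 1, 72897091 to 72914043, minus strand) are neighbours that point towards each other, with 5456 bases between their ends. Igfbp2 had 2.09, 2.91 and 2.04 normalized counts in WT and 0, 2.31 and 3.02 in GαqKO. Igfbp5 had 1.04, 1.94 and 1.02 in WT and 0.94, 2.31 and 0 in GαqKO. Each value was at or under the floor of 3 counts in a library, the groups overlapped, and neither gene was tested or given a fold. Neither overlaps another gene in the table, so both could be counted. The other clustered pair behaved differently from Igfbp2 and Igfbp5, since Igfbp1, which lies 3539 bases from Igfbp3 on chromosome 11, was listed at 0 in all 6 libraries while Igfbp3 was expressed and rose.

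To compare levels between genes, normalized counts were divided by the exon length of each gene. Igfbp7 has 77.4% of its exon length within the spans of other genes. Its level per kb, the sum and the shares may therefore be off, which was not tested. The 6 binding proteins together had 296.9, 304.3 and 296.8 normalized counts per kb in WT and 1090.0, 1116 and 1133 in GαqKO, 3.72 times as much. The difference in this summed level was far above the spread within either group, and the exact two-sided permutation test gave p = 0.1, the smallest that 3 against 3 libraries allow. The makeup of the sum shifted towards Igfbp6, which took 34.1%, 30.8% and 30.3% of the level per kb in WT and 46.7%, 43.5% and 43.0% in GαqKO. The share of Igfbp7 went from 34.8% ± 0.712 to 27.3% ± 1.4 and that of Igfbp4 from 10.3% ± 1.4 to 6.90% ± 0.737 (SD, n = 3 each), although the level of both genes rose. Igfbp3 kept a similar share, 22.7% ± 1.67 and 21.3% ± 1.55 (SD, n = 3 each), with overlapping values. In the exact permutation tests the shares of Igfbp4, Igfbp6 and Igfbp7 had p = 0.1 each (0.133 after Benjamini-Hochberg adjustment over the 4 shares tested) and that of Igfbp3 had p = 0.4.

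**Figure D3:**
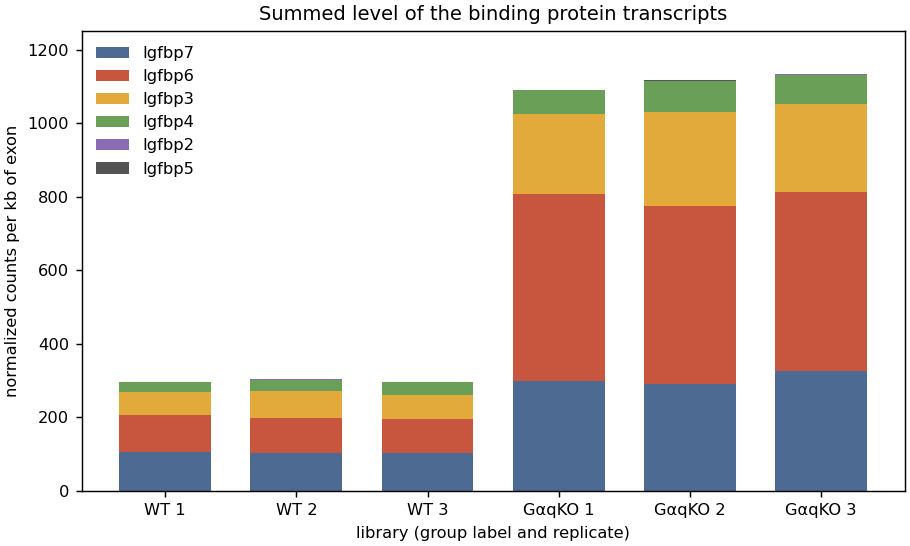
Stacked bars show the normalized counts per kb of exon of 6 binding protein genes in each library. The bars of the WT libraries reach 296.8 to 304.3 and those of the GαqKO libraries 1090.0 to 1133. As counted, the largest part in GαqKO is from Igfbp6, and Igfbp2 and Igfbp5 are too low to be seen.

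The receptor substrates moved in opposite directions. Irs1 (ENSMUSG00000055980.3; chromosome 1, 82210822 to 82269338, minus strand) had 576, 637 and 821 normalized counts in WT and 1458, 1313 and 1381 in GαqKO. WT replicate 3 was the highest of its group and stood apart from the other 2, but no GαqKO value came near it. The log2 fold change of Irs1 was 1.04 (standard error 0.10, adjusted p = 6.00e-07 from limma), and 1.19 without WT replicate 3 and 0.93 without WT replicate 1. In WT replicate 3, genes whose longest transcript is at least 6000 bases were higher than in the other WT libraries by a median of 0.08 (log2) and genes under 2000 bases were lower, at -0.10. The exons of Irs1 cover 9345 bases, and the part of this tilt in its value was not tested.

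Irs2 (ENSMUSG00000038894.8; chromosome 8, 11034681 to 11059499, minus strand) had 1895, 1889 and 2013 normalized counts in WT and 980.3, 972 and 936 in GαqKO. The libraries of each group were within a narrow range and far from those of the other. The log2 fold change of Irs2 was -1.004 (standard error 0.05, adjusted p = 5.12e-10 from limma). This size sits on the study's fold threshold, and it was -0.995 with TMM scaling, -0.97 in edgeR on 5 libraries and -0.98 in DESeq2. Of the Irs2 exon length, 23.9% lies within the span of 9530052E02Rik.

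Per kb of exon, Irs2 exceeded Irs1 by 4.17, 3.76 and 3.11 times in the WT libraries, while the ratio was 0.85, 0.94 and 0.86 in GαqKO. The order of the substrates thus differed between the groups, with Irs2 above Irs1 in each WT library and slightly below it in each GαqKO library. Reads lost from or added to Irs2 within the span of 9530052E02Rik could change the order in GαqKO, which was not tested. The exact two-sided permutation test of the log2 ratio gave p = 0.1, the smallest possible.

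**Figure D4:**
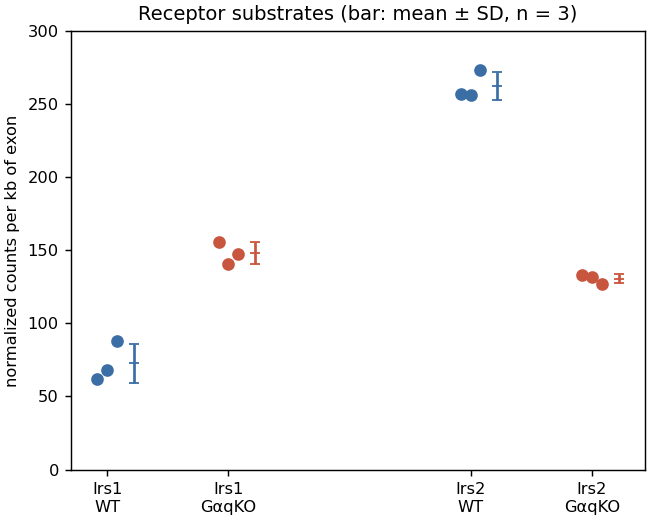
Points are normalized counts per kb of exon of Irs1 and Irs2 in single libraries, and the bars beside them are the mean ± SD of 3 libraries. Irs2 lies above Irs1 in WT (262 against 72.6 on average), and in GαqKO Irs1 at 148 lies just above Irs2 at 131.

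In WT the levels per kb ran, from high to low, Irs2 (262), Igfbp7 (104), Igfbp6 (95.0), Irs1 (72.6), Igfbp3 (68.1), Igf1r (56.2), Igfbp4 (30.7), Igf1 (6.10), Igfbp2 (1.13) and Igfbp5 (0.22). The values of Irs1 and Igfbp3 overlapped, so these neighbours did not differ beyond their spread. In GαqKO the order was Igfbp6 (494), Igfbp7 (304), Igfbp3 (237), Irs1 (148), Irs2 (131), Igfbp4 (76.9), Igf1r (69.5), Igfbp2 (0.85), Igf1 (0.35) and Igfbp5 (0.18). There, Igfbp4 and Igf1r overlapped, as did the last 3 genes. Lengths came from merged exons of all annotated transcripts, which lowers the level of a gene with many long forms such as Igf1r. Exons of Igfbp7, Igf1r, Igf1 and Irs2 also lie partly within the spans of other genes, and the effect on these orders was not tested.

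The rest of the pathway was described through 46 other genes. Of these, 34 passed the filter, and at an adjusted p under 0.05 (limma) 11 were higher and 19 lower, with 4 that did not pass. The 11 are close to the 31.8% of all tested genes that were higher, and the lower share over all genes was 34.1%. Both thresholds were passed by 7 in the higher direction and by 5 in the lower, against 10.2% and 10.5% of all genes. Stc1 is among the 7 and passed the filter only through its GαqKO libraries, so that it had to differ. The median log2 fold change of the 34 was -0.23 and the median size 0.64, against -0.01 and 0.39 over all genes.

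The strongest differences were among the genes that control the cutting of binding proteins. PAPP-A, the product of Pappa, is a protease that cuts IGFBP4 and so frees IGFs, and the stanniocalcins STC1 and STC2 are secreted proteins that inhibit it. Stc2 had 17.8, 19.4 and 19.3 normalized counts in WT and 1669.6, 1571 and 1674 in GαqKO, 87.0 times higher, or 6.37 on the log2 scale (SE 0.10, limma adjusted p = 1.46e-14). Stc1 was listed at 0 in each WT library and had 21.6, 17.3 and 27.2 in GαqKO. Its GαqKO mean was at least 7.04-fold higher than WT, taking WT at the floor of 3 counts in a library. Pappa had 84.6, 64.1 and 86.5 normalized counts in WT and 22.5, 32.4 and 42.3 in GαqKO, with no overlap between the groups, and fell by 1.28 on the log2 scale (SE 0.24, limma adjusted p = 3.80e-04). Thus in the same libraries Igfbp4 and both inhibitors were higher and the protease lower. Adam12, a membrane protease that can cut IGFBP3 and IGFBP5, rose 3.64 times, from a mean of 112 ± 15.1 normalized counts to 408 ± 25.1 (SD, n = 3 each). Pappa2 stayed under the filter, and Htra1 was listed at 0, with all of its exons inside the span of Fgfr2.

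Among ligands and carriers, none of 6 genes passed the filter. Igf2, the other IGF, was listed at 0 in each library, but 100.0% of its exon length lies within the spans of other genes. Reads may therefore be lost from its count, which was not tested, and this 0 is not read as absence of expression. Of the receptors, Igf2r, which clears IGF2 from the cell surface, fell from 1006 ± 106 to 669 ± 26.2 normalized counts (SD, n = 3 each; log2 fold change -0.58). Insr, the insulin receptor, fell from 775 ± 95.2 to 621 ± 24.5 (log2 fold change -0.31, adjusted p = 0.00374 from limma). Lrp1, a large endocytic receptor that binds IGFBP3, also fell, with WT replicate 3 at 2908 normalized counts against 1972 and 1971 in the other WT libraries and 1252 to 1338 in GαqKO. Tmem219, an IGFBP3 receptor, did not pass the test (log2 fold change 0.28, 95% interval -0.02 to 0.58).

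The related adaptors Grb10 and Grb14, which bind the activated receptors and restrain them, moved in opposite directions. Grb10 had 7678, 8063 and 8307 normalized counts in WT and 2343, 2375 and 2276 in GαqKO. Its log2 fold change was -1.78 (standard error 0.04, adjusted p = 5.98e-13 from limma). Grb14 had 80.4, 116 and 95.7 in WT and 452, 389.7 and 423 in GαqKO, or 2.12 higher on the log2 scale (SE 0.13, limma adjusted p = 5.92e-09). Of the other adaptors and brakes tested, Grb2 and Gab1 fell (log2 fold changes -0.51 and -0.56), Ptpn1 and Shc1 rose (0.82 and 0.24) and Socs2 did not pass.

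Of 12 tested genes from PI3 kinase to AKT and FOXO, 4 rose, close to the 31.8% of all tested genes that were higher. Another 6 fell, against 34.1% of all tested genes that were lower. Pik3r1, the regulatory subunit p85α, fell from 1049 ± 71.8 to 505 ± 17.0 normalized counts (SD, n = 3 each), while Pik3ca, a catalytic subunit, rose from 588 ± 34.8 to 958 ± 39.2 (SD, n = 3 each). Foxo1 and Foxo3, transcription factors that AKT keeps out of the nucleus, rose 3.07 and 2.56 times (log2 fold changes 1.61 and 1.36). Akt1, with 48.3% of its exon length within other genes, rose by a log2 fold change of 0.36, whereas Akt2 and Rheb did not pass the test.

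The growth hormone receptor gene Ghr, whose signal induces Igf1 in liver and other tissues, had 142, 132 and 128 normalized counts in WT and 1139, 1079 and 1031 in GαqKO. This was 8.07 times higher, or 3.00 on the log2 scale (SE 0.08, limma adjusted p = 9.67e-13). The genes downstream of that receptor were lower, with log2 fold changes of -0.70 for Jak2, -0.59 for Stat5a and -1.11 for Stat5b. The 3 RNA-binding protein genes named for Igf2 mRNA, which are not IGF carriers, were lower too, from -0.22 for Igf2bp1 to -1.80 for Igf2bp3, which has 45.8% of its exon length within other genes.

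**Figure D5:**
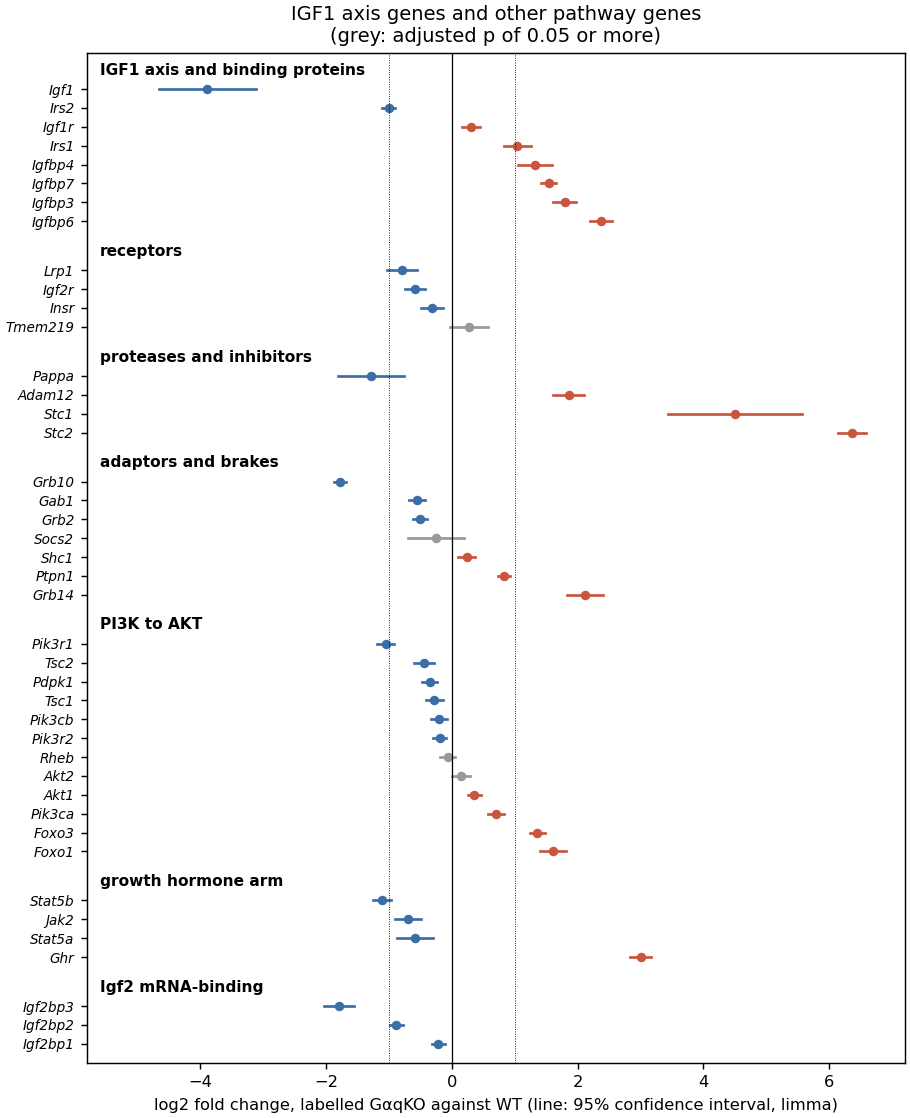
Points are log2 fold changes of GαqKO against WT with 95% confidence intervals from limma, for the 8 tested genes of the IGF1 axis and 34 other tested pathway genes by role. Red and blue mark genes higher or lower at an adjusted p under 0.05, grey those that did not pass, and dotted lines a log2 fold change of 1 in size. Stc2 at 6.37, Stc1 and Ghr at 3.00 lie farthest to the right and Igf1 at -3.89 farthest to the left.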

How the data were processed

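RNA was sequenced from 3 WT and 3 GαqKO libraries of MEFs. The authors selected poly-A RNA, aligned paired reads to GRCm39 with Rbowtie2, assigned them to genes of GENCODE release 32 for mouse with featureCounts and used DESeq2. Tool versions and the strand setting of the counting are not given in the sources used here. The deposited values are a signal, gene counts divided by 1 size factor per library by the authors. Symbols, positions and exon lengths were looked up in GENCODE release 39 (also GRCm39), where 56310 of 56953 identifiers were found.

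The main test was limma on log2(normalized count + 1) of the 6 libraries. Its prior spread followed a trend, and p-values were adjusted by Benjamini-Hochberg over 14096 genes, those that reached 10 normalized counts in 3 or more libraries. Whole reads were recovered in 5 libraries (9853000 to 12229175 reads, 100.0% of nonzero values within 0.1 of a whole read) and tested with edgeR and DESeq2, which called 4352 and 3549 genes higher and 4523 and 3884 lower. GαqKO replicate 3 was left out of those tests because its size factor is too close to 1 for the recovery to be checked. Floors of 3 counts cover counting error only. Chi-square per gene between replicates was 2.44 to 5.58, above counting noise, so each library was counted as 1. The labels' replicate numbers were checked as pairs and did not pair the libraries.

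All 10 genes are named with every library's value. Of 46 other pathway genes, those past both thresholds and 8 fixed ones were to be named, and others were added as examples after their values were seen. A pair of genes first placed on that list is not reported here. The genes, lists and tests were chosen with earlier results of these data known. Levels per kb used the merged exon length. On data simulated with the same spread for all genes, limma recovered 199 of 200 changed genes with 9 false calls among 13950. Far more genes were called in the real libraries, so these rates need not hold there. The alternatives covered pseudocount, filter, scaling, prior spread, replicate block, count tests, gene length and each library left out. Tests ran in R 4.3.3 (limma 3.58.1, edgeR 4.0.16, DESeq2 1.42.0) and Python 3.11.15 (scipy 1.17.1, numpy 2.4.6, pandas 2.3.3), with plots from matplotlib 3.10.9.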

Additional observations from a re-analysis of the deposited data

How the results depend on the processing

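Of 359 values recomputed under the alternatives, 350 kept their direction and their side of the threshold, or stayed within 1.5 times or the replicate spread. These include all 127 fold changes of the 8 tested genes, whose largest adjusted p was 0.0209, for Igf1r. Igf1 is among the 8 and had to differ, as it passed the filter only through its WT libraries. A filter of 10 or more normalized counts in all 6 libraries removes genes absent from a group by its construction. It left 831 genes higher and 765 lower past both thresholds, and 1 gene of the axis lower at either threshold, since Igf1 was no longer tested. The number lower past both thresholds was also 1 with TMM scaling, in edgeR and in DESeq2 on 5 libraries, and 1 to 2 with each library left out (1 without WT replicate 3 or GαqKO replicate 3), because Irs2 lies on the fold threshold. The number higher past both thresholds was 4 without WT replicate 1, where Irs1 had a log2 fold change of 0.93, and 5 under each other alternative. With the replicate number as a block, limma called 4324 genes higher and 4638 lower, against 4479 and 4800 without it, and no call on the 8 genes changed. The same-numbered libraries deviated from their group means with correlations of -0.05, -0.15 and -0.06, and 0 of 6 libraries correlated best with their own number. Depth limits Igf1 in GαqKO, Igfbp2 and Igfbp5, where a difference was not detectable or is poorly sized.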
